A study of Rattus with 27 samples.

Results

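The comparison described here set brains of rats labelled vehicle against brains of sham-operated rats. It used 6 of the 27 arrays of the series: those titled vehicle 2, 4 and 5 in the brain and those titled sham 3, 4 and 5 in the brain. The arrays were chosen by their titles, with no measured value involved. All rats were Sprague Dawley, tissues were taken at 6 h, and the labels state that brains were made into a homogenate, so each array averages over all cells of its sample. They do not say whether the whole brain or a piece of it was taken. The labels used here give neither age nor sex.

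The labels name the groups in a conflicting way. Per the treatment protocol, every group but sham underwent middle cerebral artery occlusion (MCAO), while sham rats had anaesthesia and dissection of the vessel alone. In the protocol the MCAO groups are a vehicle control and rats that received YJ, the formulae of the series title, at a dose of 25 mg/kg. The titles list vehicle and model groups in their place. Description codes begin with D for the vehicle-labelled brains, M for the model-labelled brains and S for the sham brains, and no label explains the letters. The vehicle-labelled brains may therefore have come from rats given YJ or from rats given its vehicle. A difference from sham is the difference of MCAO together with whichever of these was given, and it cannot be read as an effect of either alone. Hybridization dates and batches are not given in the labels, and any batch that coincided with a group cannot be told apart from it.

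MCAO stops the flow through a large cerebral artery and is a common model of ischaemic stroke. Loss of blood flow deprives cells of oxygen and glucose, and proteins then misfold in the cytosol and in the endoplasmic reticulum. Cells respond through heat shock factors, which switch on chaperone genes, and through the unfolded protein response. Immediate early genes, NF-kappaB, cytokines of the IL-6 family acting through STAT3, and adrenal glucocorticoids shape much of the early transcription after such an injury.

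Values are log2 intensities. Within the vehicle-labelled group and within the sham group, arrays correlated across genes with r between 0.968 and 0.993, no pair was identical, and the medians of the brain arrays lay between 5.09 and 5.24. Arrays were not always closest to their own group. Vehicle 2 correlated at 0.98 with sham 5, against 0.974 with vehicle 4 and with vehicle 5. Sham 5 correlated at 0.968 with sham 3 and at 0.97 with sham 4. The tissue label was met by the neuronal markers Snap25, Syt1, Rbfox3 and Nefl, each highest in brain. Snap25, a synaptic protein of neurons, averaged 12.22 in the brain arrays of these groups, against 3.79 in white blood cells and 3.63 in spleen of the same groups. Not every marker of brain cells was highest in brain. Mbp averaged 6.97 in brain, 8.50 in white blood cells and 7.15 in spleen, and P2ry12 averaged 7.42, 11.10 and 7.41. With 3 arrays per group, precision is limited by their number.

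A pair of arrays stood apart on genes that mark brain regions. The mean level of 9 genes of cortical projection neurons, taken relative to the sham mean, was -1.01, 0.61 and 0.61 in vehicle-labelled brains 2, 4 and 5, against 0.65, 0.77 and -1.41 in sham brains 3, 4 and 5. The mean level of 17 hypothalamic and thalamic genes was -0.11, -1.06 and -1.07 in vehicle-labelled brains 2, 4 and 5, against -0.65, -0.80 and 1.45 in sham brains 3, 4 and 5. Vehicle 2 and sham 5 were thus low in cortical genes. On the hypothalamic and thalamic list sham 5 was the highest, and vehicle 2 lay above the remaining arrays. Members picked out after their values were seen show the size of this. Slc17a7, the vesicular glutamate transporter of cortical neurons, measured 7.28, 10.89 and 10.70 in vehicle-labelled brains 2, 4 and 5, against 11.01, 11.12 and 5.10 in sham brains 3, 4 and 5. Pmch, a peptide of the lateral hypothalamus, measured 3.64, 3.42 and 3.54 in vehicle-labelled brains 2, 4 and 5, against 3.37, 3.55 and 11.34 in sham brains 3, 4 and 5. Slc17a6, of the same list, was high in both vehicle 2 and sham 5. It measured 9.03, 4.36 and 4.07 in vehicle-labelled brains 2, 4 and 5. In sham brains 3, 4 and 5 it measured 4.61, 4.64 and 8.96. The arrays may therefore not hold the same regions in the same proportions, and each difference below carries that limit. Results are given with all 6 arrays first and then without vehicle 2 and sham 5. That second fit sets vehicle 4 and 5 against sham 3 and 4, a choice made with earlier results of these arrays known. Its adjusted p-values are therefore a description. The part of this regional difference in the results was not tested.

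**Figure D1:**
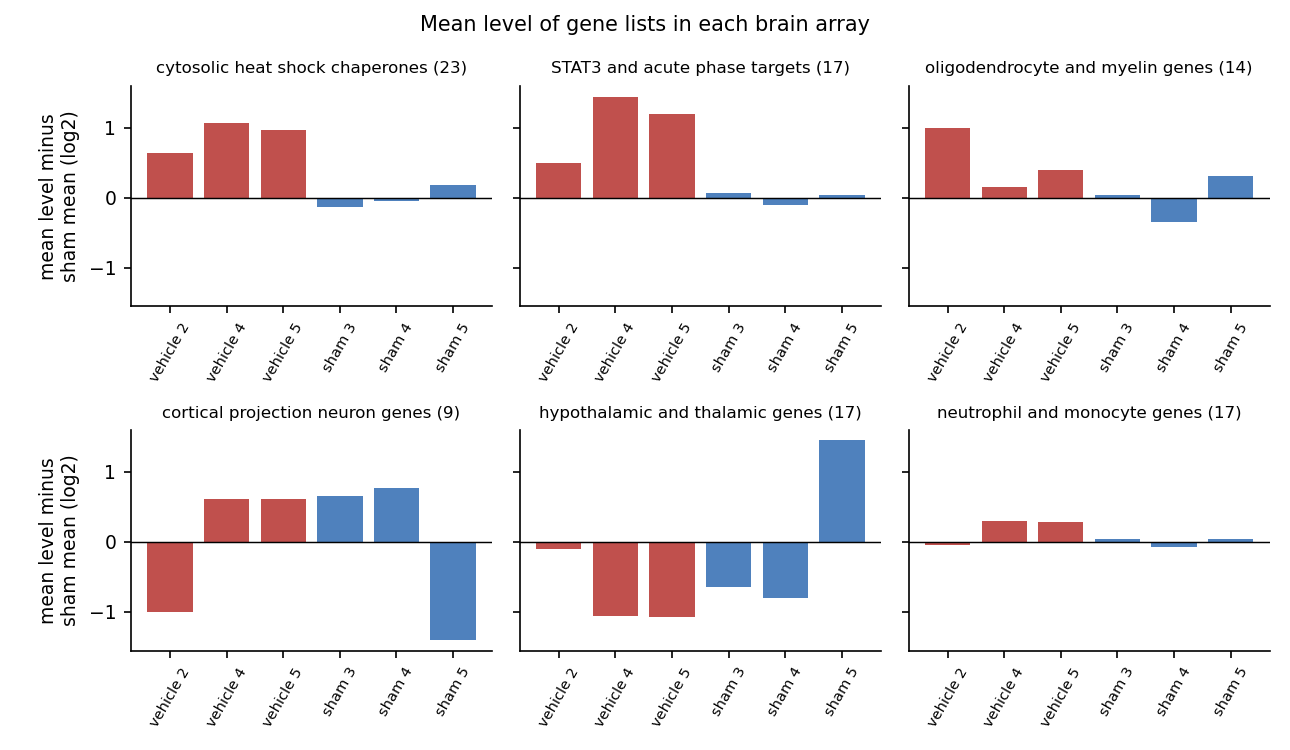
Mean level of the genes of 6 lists in each brain array, in log2 units relative to the mean of the 3 sham arrays (number of genes in parentheses); red bars are vehicle-labelled brains, blue bars sham brains. The heat shock and STAT3 lists are above 0.4 in every vehicle-labelled brain, while the cortical list is below -1 in vehicle 2 and sham 5.

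In vehicle-labelled brains 7 of 14506 genes rose (0.0483% of the genes tested), namely Dnajb1, Sgk1, Nfkbia, Errfi1, P4ha1, Herpud1 and Nfil3, and 0 fell. A gene counts as having risen or fallen where limma's adjusted p was under 0.05. At an unadjusted p under 0.05 there were 1354 genes (9.33%), of which 855 were higher (5.89%) and 499 lower (3.44%). The 7 genes span chaperone, hormone, inflammatory and hypoxia roles, and their arrays are shown in the plot of called genes. Differences below are vehicle-labelled minus sham on the log2 scale, ± the standard error (SE) of the fit.

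Dnajb1 encodes a cytosolic co-chaperone that delivers misfolded proteins to Hsp70. It measured 8.50, 9.35 and 9.01 in vehicle-labelled brains 2, 4 and 5, against 7.06, 7.14 and 6.99 in sham brains 3, 4 and 5. It rose by 1.89 ± 0.19, a fold of 3.71 (adjusted p = 0.0179), and the model-labelled brains averaged 8.84 ± 0.14 (SD, n = 3). Herpud1 encodes a protein of the endoplasmic reticulum membrane that helps remove misfolded proteins. Its values were 7.98, 8.09 and 7.70 in vehicle-labelled brains 2, 4 and 5, against 6.43, 6.61 and 6.88 in sham brains 3, 4 and 5, a rise of 1.28 ± 0.15 (adjusted p = 0.0278). For both genes the groups were separated by a wide margin, and vehicle 2, the regional outlier, was the lowest vehicle-labelled array for Dnajb1 but not for Herpud1.

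Sgk1, a kinase induced by serum and glucocorticoids, measured 9.45, 9.01 and 9.05 in vehicle-labelled brains 2, 4 and 5, against 7.66, 7.71 and 7.71 in sham brains 3, 4 and 5. It rose by 1.48 ± 0.16, a fold of 2.78 (adjusted p = 0.0258). The sham values of Sgk1 nearly coincided, and vehicle 2 was the highest. Nfkbia encodes the inhibitor that holds NF-kappaB in the cytoplasm and is itself an NF-kappaB target. It measured 7.86, 8.32 and 7.98 in vehicle-labelled brains 2, 4 and 5, against 6.54, 6.78 and 6.69 in sham brains 3, 4 and 5, and rose by 1.38 ± 0.14 (adjusted p = 0.0179).

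Errfi1 encodes an inhibitor of the epidermal growth factor receptor. Its values were 9.07, 9.38 and 8.85 in vehicle-labelled brains 2, 4 and 5, against 7.72, 7.96 and 7.52 in sham brains 3, 4 and 5, a rise of 1.37 ± 0.16 (adjusted p = 0.0296). Nfil3, a transcriptional repressor that also acts in the circadian clock, measured 5.96, 6.34 and 6.11 in vehicle-labelled brains 2, 4 and 5, against 5.20, 4.94 and 4.83 in sham brains 3, 4 and 5. It rose by 1.15 ± 0.14 (adjusted p = 0.03), the smallest change of the 7. Sgk1, Nfkbia, Errfi1 and Nfil3 all belong to a list of 22 measured glucocorticoid-induced genes.

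P4ha1 encodes the catalytic subunit of a collagen prolyl hydroxylase and is a target of hypoxia-inducible factor. It measured 8.22, 8.26 and 8.20 in vehicle-labelled brains 2, 4 and 5, against 6.55, 7.09 and 6.96 in sham brains 3, 4 and 5. Its vehicle-labelled values lay close together while the sham values spread more widely, and it rose by 1.36 ± 0.17 (adjusted p = 0.0386).

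**Figure D2:**
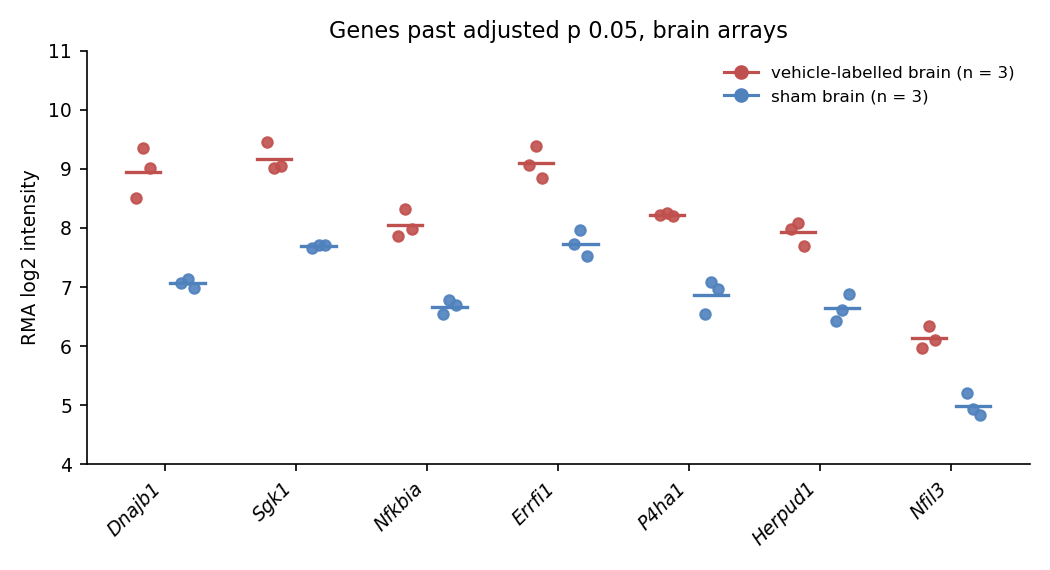
RMA log2 intensity (vertical axis) of the 7 genes past an adjusted p of 0.05 in each vehicle-labelled brain (red) and each sham brain (blue); short lines are group means, n = 3 each. The groups do not overlap for any of the 7, from Dnajb1 (8.50 to 9.35 in vehicle-labelled, 6.99 to 7.14 in sham) to Nfil3 (5.96 to 6.34 in vehicle-labelled, 4.83 to 5.20 in sham).

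Without vehicle 2 the count was 106, without sham 5 it was 33 and without both it was 224, with all 7 genes called each time. By contrast, limma called 0 genes without vehicle 4, vehicle 5, model 1, model 3, sham 3 or sham 4, where between 957 and 1269 genes kept an unadjusted p under 0.05, and 3 without model 2. It also called 0 in a fit of the 6 vehicle-labelled and sham arrays alone, where 1193 genes had an unadjusted p under 0.05.

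Just outside the threshold, in order of p, were Arid5a, Ccdc117, Sncg, Gadd45b and Calr, with adjusted p between 0.0526 and 0.0587. Arid5a, an RNA-binding protein that stabilises inflammatory messages, averaged 6.85 ± 0.19 in vehicle-labelled brains, against 5.89 ± 0.13 in sham brains (SD, n = 3 each). Calr, a calcium-binding chaperone of the endoplasmic reticulum, measured 10.47, 10.61 and 10.55 in vehicle-labelled brains 2, 4 and 5, against 9.77, 9.88 and 9.82 in sham brains 3, 4 and 5. Neither gene's groups overlapped, and their differences from sham were 0.96 ± 0.13 and 0.72 ± 0.11.

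The largest differences did not belong to the genes with the smallest p. Among genes with an unadjusted p under 0.05 and no overlap between groups, the 12 largest positive differences lay between 1.89 and 3.69, and 11 of these genes missed the threshold. Those 11 were Ccl3, Hspb1, Ccl2, Hmox1, Npas4, Atf3, Spp1, Olr1, Gadd45b, Fos and Timp1. Vehicle 2 was the lowest of the vehicle-labelled arrays for 11 of the 12. All 12 passed the test in the fit without vehicle 2 and sham 5, where 224 genes did (1.54%). Leaving out the lowest vehicle-labelled array raises the mean of that group, so these passes are no independent support.

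Ccl3 and Ccl2 encode chemokines that attract leukocytes. Ccl3 measured 6.93, 9.88 and 8.72 in vehicle-labelled brains 2, 4 and 5, against 4.64, 4.94 and 4.89 in sham brains 3, 4 and 5, a difference of 3.69 ± 0.71 (adjusted p = 0.116). Ccl2 measured 6.65, 9.13 and 8.32 in vehicle-labelled brains 2, 4 and 5, against 4.51, 5.50 and 5.26 in sham brains 3, 4 and 5, a difference of 2.94 ± 0.58 (adjusted p = 0.127). Both were above sham in every vehicle-labelled brain, with a wider spread among those brains than among the sham brains. The SD was 1.49 against 0.16 for Ccl3 and 1.26 against 0.52 for Ccl2 (n = 3 each). Without vehicle 2 and sham 5 their differences were 4.51 (adjusted p = 0.00529) and 3.72 (adjusted p = 0.0044).

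Hspb1 encodes a small heat shock protein that keeps unfolded proteins soluble. It measured 6.72, 8.57 and 8.94 in vehicle-labelled brains 2, 4 and 5, against 4.93, 4.48 and 4.86 in sham brains 3, 4 and 5, a difference of 3.32 ± 0.52 (adjusted p = 0.064). Hmox1, the inducible haem oxygenase, measured 6.35, 8.52 and 8.80 in vehicle-labelled brains 2, 4 and 5, against 5.08, 4.84 and 5.67 in sham brains 3, 4 and 5, a difference of 2.69 ± 0.55 (adjusted p = 0.13). In both, vehicle 2 lay between the sham brains and the other vehicle-labelled brains. Without vehicle 2 and sham 5 the difference of Hmox1 was 3.70 ± 0.22, with the smallest adjusted p of that fit (1.37e-04), and that of Hspb1 was 4.05 ± 0.34 (adjusted p = 6.84e-04).

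Npas4 and Fos are immediate early transcription factors switched on by neuronal activity. Npas4 measured 7.40, 7.74 and 7.75 in vehicle-labelled brains 2, 4 and 5, against 5.57, 5.63 and 4.24 in sham brains 3, 4 and 5, a difference of 2.48 ± 0.38 (adjusted p = 0.0601). Fos measured 7.81, 7.28 and 6.85 in vehicle-labelled brains 2, 4 and 5, against 5.65, 5.60 and 4.89 in sham brains 3, 4 and 5, a difference of 1.93 ± 0.31 (adjusted p = 0.0711). Sham 5 was the lowest array for both. Without vehicle 2 and sham 5 the differences were 2.15 and 1.44, smaller than with all arrays.

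Atf3, a stress-induced transcription factor, measured 5.55, 7.98 and 7.19 in vehicle-labelled brains 2, 4 and 5, against 4.41, 4.66 and 4.32 in sham brains 3, 4 and 5 (adjusted p = 0.126). Timp1, an inhibitor of matrix metalloproteinases, measured 7.97, 9.73 and 9.11 in vehicle-labelled brains 2, 4 and 5, against 7.38, 6.60 and 7.04 in sham brains 3, 4 and 5 (adjusted p = 0.119). Spp1, which encodes osteopontin, measured 7.01, 8.04 and 8.67 in vehicle-labelled brains 2, 4 and 5, against 5.28, 6.11 and 5.46 in sham brains 3, 4 and 5 (adjusted p = 0.143). In each of these the lowest vehicle-labelled array, vehicle 2, came closest to the sham arrays. Gadd45b, a stress-sensing gene of growth arrest, and Olr1, a receptor for oxidised lipoprotein, differed by 1.96 ± 0.28 and 2.22 ± 0.49.

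On the other side, the 12 largest negative differences without overlap lay between -1.75 and -0.91, and none of the 12 passed the test. Slco1a4, which carries organic anions across the blood-brain barrier, measured 5.64, 4.62 and 4.79 in vehicle-labelled brains 2, 4 and 5, against 6.44, 7.05 and 6.74 in sham brains 3, 4 and 5, a difference of -1.73 ± 0.31 (adjusted p = 0.0896). Sncg, which encodes gamma-synuclein, measured 5.99, 5.26 and 5.89 in vehicle-labelled brains 2, 4 and 5, against 7.29, 7.32 and 7.25 in sham brains 3, 4 and 5, a difference of -1.57 ± 0.22 (adjusted p = 0.0581). The sham values of Sncg were tight, and every vehicle-labelled brain was over 1 log2 unit below them. Both genes passed the test without vehicle 2 and sham 5, at -2.04 and -1.73.

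P2ry12, a purine receptor of resting microglia, measured 7.38, 6.37 and 6.29 in vehicle-labelled brains 2, 4 and 5, against 7.81, 8.34 and 8.31 in sham brains 3, 4 and 5 (adjusted p = 0.179). Sult1a1, a sulfotransferase, measured 6.83, 5.99 and 6.29 in vehicle-labelled brains 2, 4 and 5, against 7.87, 7.48 and 7.16 in sham brains 3, 4 and 5 (adjusted p = 0.15). Fmo1, a flavin monooxygenase, measured 5.30, 4.83 and 4.83 in vehicle-labelled brains 2, 4 and 5, against 6.08, 6.57 and 5.51 in sham brains 3, 4 and 5 (adjusted p = 0.171). In all of these vehicle 2 lay nearest to sham. Because these are homogenates, fewer cells of a type and less RNA per cell cannot be told apart.

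For Th, tyrosine hydroxylase of catecholamine synthesis, the negative difference came mainly from a single sham array. Th measured 5.03, 4.92 and 4.86 in vehicle-labelled brains 2, 4 and 5, against 5.46, 5.64 and 8.95 in sham brains 3, 4 and 5. The difference was -1.75 ± 0.75 (adjusted p = 0.515) and it was -0.66 (adjusted p = 0.15) without vehicle 2 and sham 5. Sham 5 was likewise the highest sham array for 6 of the 12 genes, among them Cfap300, Cmc1, Fxyd6 and Nrarp. Of the 12, 7 passed the test without vehicle 2 and sham 5, whereas Th, Cfap300, Nrarp, Cmc1 and Fxyd6 did not.

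**Figure D3:**
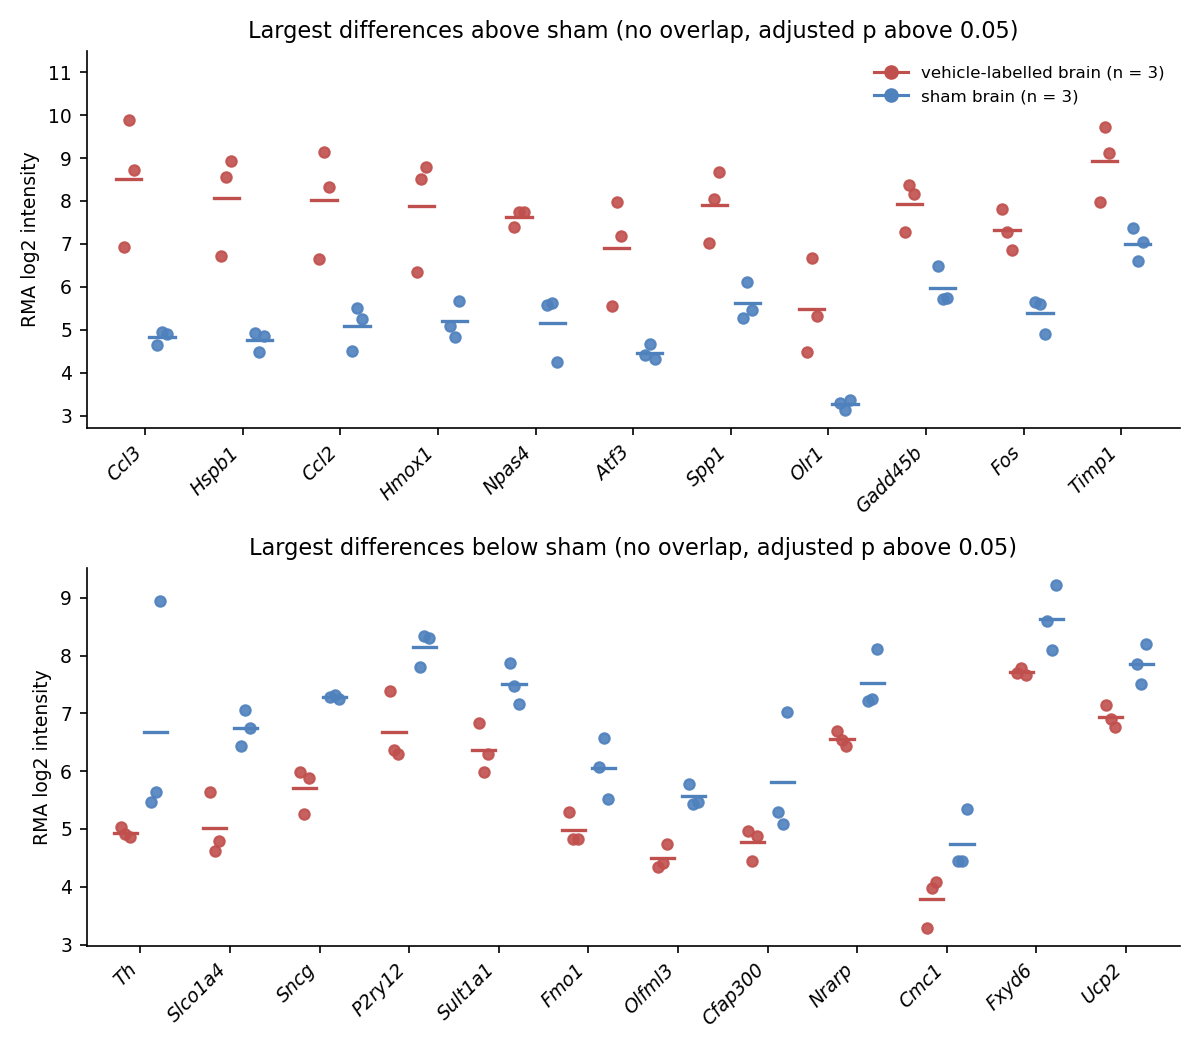
RMA log2 intensity in each vehicle-labelled brain (red) and each sham brain (blue) of the genes with the largest differences without overlap that missed an adjusted p of 0.05; short lines are group means, n = 3 each. In the upper panel 1 vehicle-labelled array, vehicle 2, is the lowest for most genes (6.93 for Ccl3), and in the lower panel the sham value of 8.95 for Th is sham 5.

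Removing both regional outliers left 7 brain arrays and raised the count to 179 higher genes (1.23%) and 45 lower genes (0.31%). The largest positive differences in that fit were those of Ccl3, Hspb1, Ccl2, Hmox1, Atf3, Olr1, Spp1 and Zfand2a. Zfand2a, a heat shock-inducible gene that links to the proteasome, measured 7.10, 9.24 and 9.15 in vehicle-labelled brains 2, 4 and 5, against 6.76, 6.64 and 6.57 in sham brains 3, 4 and 5. Its difference was 1.84 ± 0.48 (adjusted p = 0.228) with all arrays and 2.50 ± 0.20 (adjusted p = 5.25e-04) without that pair.

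The largest negative differences without that pair were those of Slco1a4, P2ry12, Sncg, Rgs18, Selplg, Sult1a1, Fmo1 and Fmod. Selplg, the P-selectin ligand, measured 7.08, 5.00 and 5.39 in vehicle-labelled brains 2, 4 and 5, against 6.79, 6.82 and 6.69 in sham brains 3, 4 and 5, so that vehicle 2 was above all sham arrays. Rgs18, a regulator of G protein signalling, measured 3.29, 3.54 and 3.50 in vehicle-labelled brains 2, 4 and 5, against 4.84, 5.46 and 3.49 in sham brains 3, 4 and 5, so that sham 5 lay with the vehicle-labelled brains. Fmod, a small proteoglycan of connective tissue, behaved like Rgs18, with 4.35, 4.91 and 4.50 in vehicle-labelled brains 2, 4 and 5, against 6.43, 5.68 and 4.52 in sham brains 3, 4 and 5. The groups overlapped for Selplg, Rgs18 and Fmod, whose calls rest on leaving out those arrays.

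Gene lists of stress, signalling and cell types were then described by how many members had no overlap between the 3 vehicle-labelled and the 3 sham arrays, beside 7.93% of all genes higher and 5.45% of all genes lower without overlap. The median difference of all genes was 0.01. Counts of members past the test stand beside 0.0483% of all genes higher and 0 lower with all arrays. Without vehicle 2 and sham 5 these shares were 1.23% higher and 0.31% lower. Some genes belong to several lists, and the lists were drawn up with earlier results of these arrays known.

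Cytosolic heat shock chaperones were higher without overlap for 15 of 23 measured members (65.2%), with a median difference of 0.90, and lower for 0. The list also holds the mitochondrial chaperones Hspd1 and Hspe1 and the heat shock factors Hsf1 and Hsf2. Only Dnajb1 of this list passed the test with all arrays, and 13 members did without vehicle 2 and sham 5. Hsph1, a large chaperone that recharges Hsp70, measured 9.56, 10.48 and 10.69 in vehicle-labelled brains 2, 4 and 5, against 8.35, 8.35 and 8.69 in sham brains 3, 4 and 5 (adjusted p = 0.0587). Bag3, a co-chaperone of selective autophagy, measured 7.44, 7.92 and 8.40 in vehicle-labelled brains 2, 4 and 5, against 6.20, 5.76 and 6.41 in sham brains 3, 4 and 5 (adjusted p = 0.0601). Dnajb4, another co-chaperone of Hsp70, differed by 0.94 ± 0.14 (adjusted p = 0.0587). The mean level of the list was 0.63, 1.07 and 0.97 above the sham mean in vehicle-labelled brains 2, 4 and 5, against -0.13, -0.05 and 0.18 in sham brains 3, 4 and 5, so the groups did not overlap.

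Chaperones and degradation genes of the endoplasmic reticulum were higher without overlap for 8 of 21 members (38.1%) and lower for 0, with a median of 0.46. Hspa5, the main chaperone of that compartment, measured 10.70, 10.71 and 10.78 in vehicle-labelled brains 2, 4 and 5, against 9.38, 9.30 and 10.14 in sham brains 3, 4 and 5, a difference of 1.12 ± 0.20 (adjusted p = 0.0896). Xbp1, a transcription factor of the unfolded protein response, differed by 0.51 ± 0.11 (adjusted p = 0.154). Sham 5 was the highest sham array for Hspa5, and 5 members passed the test without vehicle 2 and sham 5. Genes of the integrated stress response, in which stress-sensing kinases lower general translation, were higher without overlap for 6 of 18 members (33.3%) and lower for 1 (5.56%). Without vehicle 2 and sham 5 the test was passed by 4 as higher and 1 as lower. Ddit3, a factor of stress-induced cell death, measured 7.13, 7.07 and 7.19 in vehicle-labelled brains 2, 4 and 5, against 6.03, 6.00 and 6.73 in sham brains 3, 4 and 5 (adjusted p = 0.154).

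Glucocorticoid-induced genes included 4 of the 7 genes that rose. Of 22 measured members, 11 were higher without overlap (50%) and 3 were lower (13.6%), with a median of 0.61. Leaving out vehicle 2 and sham 5 gave 7 members past the test as higher and 1 as lower, with a median of 0.43. Cebpd, a transcription factor of the acute phase, measured 7.13, 7.83 and 7.55 in vehicle-labelled brains 2, 4 and 5, against 6.50, 6.29 and 6.35 in sham brains 3, 4 and 5 (adjusted p = 0.0587). Ddit4, an inhibitor of mTORC1 signalling, measured 7.55, 7.79 and 7.63 in vehicle-labelled brains 2, 4 and 5, against 6.77, 6.72 and 7.02 in sham brains 3, 4 and 5 (adjusted p = 0.0798). The members did not share a direction. Fkbp5, a co-chaperone of the glucocorticoid receptor that was picked out after its values were seen, measured 7.23, 7.38 and 7.08 in vehicle-labelled brains 2, 4 and 5, against 7.62, 7.54 and 7.47 in sham brains 3, 4 and 5 (difference -0.31 ± 0.11, adjusted p = 0.414).

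STAT3 and acute phase targets were higher without overlap for 12 of 17 members (70.6%) and lower for 0, with a median of 0.88, while none passed the test with all arrays and 11 did without vehicle 2 and sham 5. Myc, a growth-promoting transcription factor, measured 5.14, 5.55 and 5.31 in vehicle-labelled brains 2, 4 and 5, against 3.99, 4.57 and 4.04 in sham brains 3, 4 and 5 (adjusted p = 0.0762). Pim1, a kinase of cytokine signalling, measured 6.72, 6.85 and 6.58 in vehicle-labelled brains 2, 4 and 5, against 5.96, 6.08 and 5.73 in sham brains 3, 4 and 5 (adjusted p = 0.0896). The mean level of the list was 0.50, 1.44 and 1.19 in vehicle-labelled brains 2, 4 and 5, against 0.06, -0.10 and 0.04 in sham brains 3, 4 and 5.

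Among NF-kappaB and Toll-like receptor genes 7 of 16 were higher without overlap (43.8%) and 0 lower, with Nfkbia past the test. Cd14, a co-receptor for bacterial lipopolysaccharide, measured 6.47, 7.91 and 7.54 in vehicle-labelled brains 2, 4 and 5, against 5.48, 5.57 and 5.78 in sham brains 3, 4 and 5 (difference 1.70 ± 0.32, adjusted p = 0.099). Inflammatory cytokines and chemokines were higher for 8 of 22 (36.4%) and lower for 0, with a median of 0.45. Genes of endothelial activation and fibrinolysis were higher for 9 of 17 (52.9%) and lower for 0. With vehicle 2 and sham 5 left out, the test was passed by 3 members of the NF-kappaB list, 3 of the cytokine list and 4 of the endothelial list, all higher. Plat, the tissue plasminogen activator, measured 8.27, 9.03 and 8.45 in vehicle-labelled brains 2, 4 and 5, against 7.52, 7.47 and 7.98 in sham brains 3, 4 and 5 (adjusted p = 0.162).

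Of 17 neutrophil and monocyte genes 0 were without overlap in either direction, and the median difference was 0.18. The defining neutrophil markers S100a8, S100a9, Ngp, Mpo, Csf3r and Cxcr2 summed to between 25.00 and 25.73 in vehicle-labelled brains, against between 24.08 and 25.06 in sham brains, and none of the 6 passed the test. Lcn2, which neutrophils and reactive astrocytes express, measured 5.17, 6.20 and 6.54 in vehicle-labelled brains 2, 4 and 5, against 5.38, 4.77 and 5.11 in sham brains 3, 4 and 5 (difference 0.88 ± 0.31, adjusted p = 0.389). Without vehicle 2 and sham 5 its difference was 1.29 (adjusted p = 0.014), and it was the 1 member of the neutrophil and monocyte list that passed the test. In white blood cells of the same groups Lcn2 differed by 3.45 (limma, adjusted p = 3.41e-06). The part of blood in its brain value was not tested. The 3 measured erythroid markers of the 5 listed overlapped as well, with sums between 22.62 and 23.44 in vehicle-labelled brains, against 22.41 and 23.62 in sham brains.

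Immediate early genes were higher without overlap for 10 of 26 members (38.5%) and lower for 0, with a median of 0.50. Jun, a subunit of the AP-1 factor, measured 7.02, 8.63 and 8.03 in vehicle-labelled brains 2, 4 and 5, against 6.34, 6.18 and 6.51 in sham brains 3, 4 and 5 (difference 1.55 ± 0.32, adjusted p = 0.143). The mean level of this list was 0.31, 1.01 and 0.75 in vehicle-labelled brains 2, 4 and 5, against 0.33, 0.26 and -0.59 in sham brains 3, 4 and 5, so vehicle 2 lay within the sham range. The list of MAP kinase phosphatases, which switch off the kinases upstream of these genes, also holds Spry and Spred genes, which are not phosphatases. Its members were higher for 5 of 16 (31.2%) and lower for 0. Dusp5 measured 5.92, 5.92 and 6.17 in vehicle-labelled brains 2, 4 and 5, against 5.31, 5.55 and 5.04 in sham brains 3, 4 and 5 (adjusted p = 0.281). None of either list passed the test with all arrays. In the fit without vehicle 2 and sham 5, 6 immediate early genes passed as higher and 1 as lower, and 0 members of the phosphatase list passed.

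Targets of hypoxia-inducible factor were higher without overlap for 7 of 25 members (28%) and lower for 1 (4%), with a median of 0.21. Beside P4ha1, Vegfa, the main angiogenic factor, measured 7.93, 8.68 and 8.01 in vehicle-labelled brains 2, 4 and 5, against 7.34, 7.68 and 7.27 in sham brains 3, 4 and 5 (adjusted p = 0.281). Bnip3, a mitophagy receptor, differed the other way, with 9.35, 9.23 and 9.14 in vehicle-labelled brains 2, 4 and 5, against 9.70, 9.58 and 9.66 in sham brains 3, 4 and 5 (difference -0.41 ± 0.12, adjusted p = 0.287). Its second probe differed by -0.32. The test was passed by 2 members of the hypoxia list without vehicle 2 and sham 5. Nrf2 antioxidant targets were higher without overlap for 4 of 16 members (25%), namely Hmox1, Srxn1, Osgin1 and Ftl1, and lower for 1 (6.25%), with a median of 0.02. The differences of Srxn1, Osgin1 and Ftl1 were 0.58, 0.34 and 0.28, and Hmox1 was the 1 member past the test without vehicle 2 and sham 5. The p53 and growth arrest list had a median of 0.10, with 4 of 15 higher without overlap (26.7%) and 0 lower, and 3 members passed the test without that pair.

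Homeostatic microglia genes had a median of -0.14, with 2 of 16 lower without overlap (12.5%) and 1 higher (6.25%). Olfml3, a secreted matrix protein of microglia, measured 4.34, 4.41 and 4.74 in vehicle-labelled brains 2, 4 and 5, against 5.78, 5.44 and 5.47 in sham brains 3, 4 and 5 (difference -1.07 ± 0.18, adjusted p = 0.0805). Without vehicle 2 and sham 5, 4 members of this list passed the test as lower, among them P2ry12 and Olfml3. The markers P2ry12, Csf1r, Cx3cr1 and Tmem119 summed to between 26.09 and 28.68 in vehicle-labelled brains, against 28.55 and 29.46 in sham brains, and the highest vehicle-labelled sum, that of vehicle 2, lay above the lowest sham sum. The lower sums came mainly from P2ry12, which differed by -1.47. Csf1r, Cx3cr1 and Tmem119 differed by -0.17, 0.06 and -0.11, so the sum shows no shared fall of the markers.

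Transporters and junctions of the blood-brain barrier did not share a direction, with 3 of 19 higher and 3 lower without overlap (15.8% each) and a median of 0.03. In the smaller fit, without vehicle 2 and sham 5, 1 member passed the test as higher and 3 as lower. Abcb1a, the P-glycoprotein efflux pump, measured 6.18, 5.62 and 6.05 in vehicle-labelled brains 2, 4 and 5, against 6.82, 6.82 and 6.41 in sham brains 3, 4 and 5 (adjusted p = 0.348). Slc16a1, a lactate transporter, measured 7.64, 7.68 and 7.47 in vehicle-labelled brains 2, 4 and 5, against 6.85, 6.84 and 7.33 in sham brains 3, 4 and 5 (adjusted p = 0.228). The endothelial markers Cldn5, Pecam1 and Cdh5 summed to between 17.76 and 18.39 in vehicle-labelled brains, against 17.65 and 18.45 in sham brains.

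Oligodendrocyte and myelin genes were higher without overlap for 5 of 14 (35.7%) and lower for 0, with a median of 0.58. Mobp, a myelin protein, measured 11.12, 10.20 and 10.42 in vehicle-labelled brains 2, 4 and 5, against 9.59, 9.12 and 10.03 in sham brains 3, 4 and 5 (adjusted p = 0.526). The mean level of the list was 1.00, 0.15 and 0.39 in vehicle-labelled brains 2, 4 and 5, against 0.04, -0.35 and 0.31 in sham brains 3, 4 and 5. Vehicle 2, low in cortical genes, was thus the highest in myelin genes, and 0 members passed the test with or without that array and sham 5. Hypothalamic and thalamic genes had a median of -0.57 with 3 of 17 lower (17.6%), and sham 5 carried the highest list level; without vehicle 2 and sham 5 the median was -0.31 and 0 members passed the test. Agrp, a peptide of hunger neurons, measured 5.17, 4.99 and 5.41 in vehicle-labelled brains 2, 4 and 5, against 5.59, 5.56 and 7.13 in sham brains 3, 4 and 5 (adjusted p = 0.466).

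**Figure D4:**
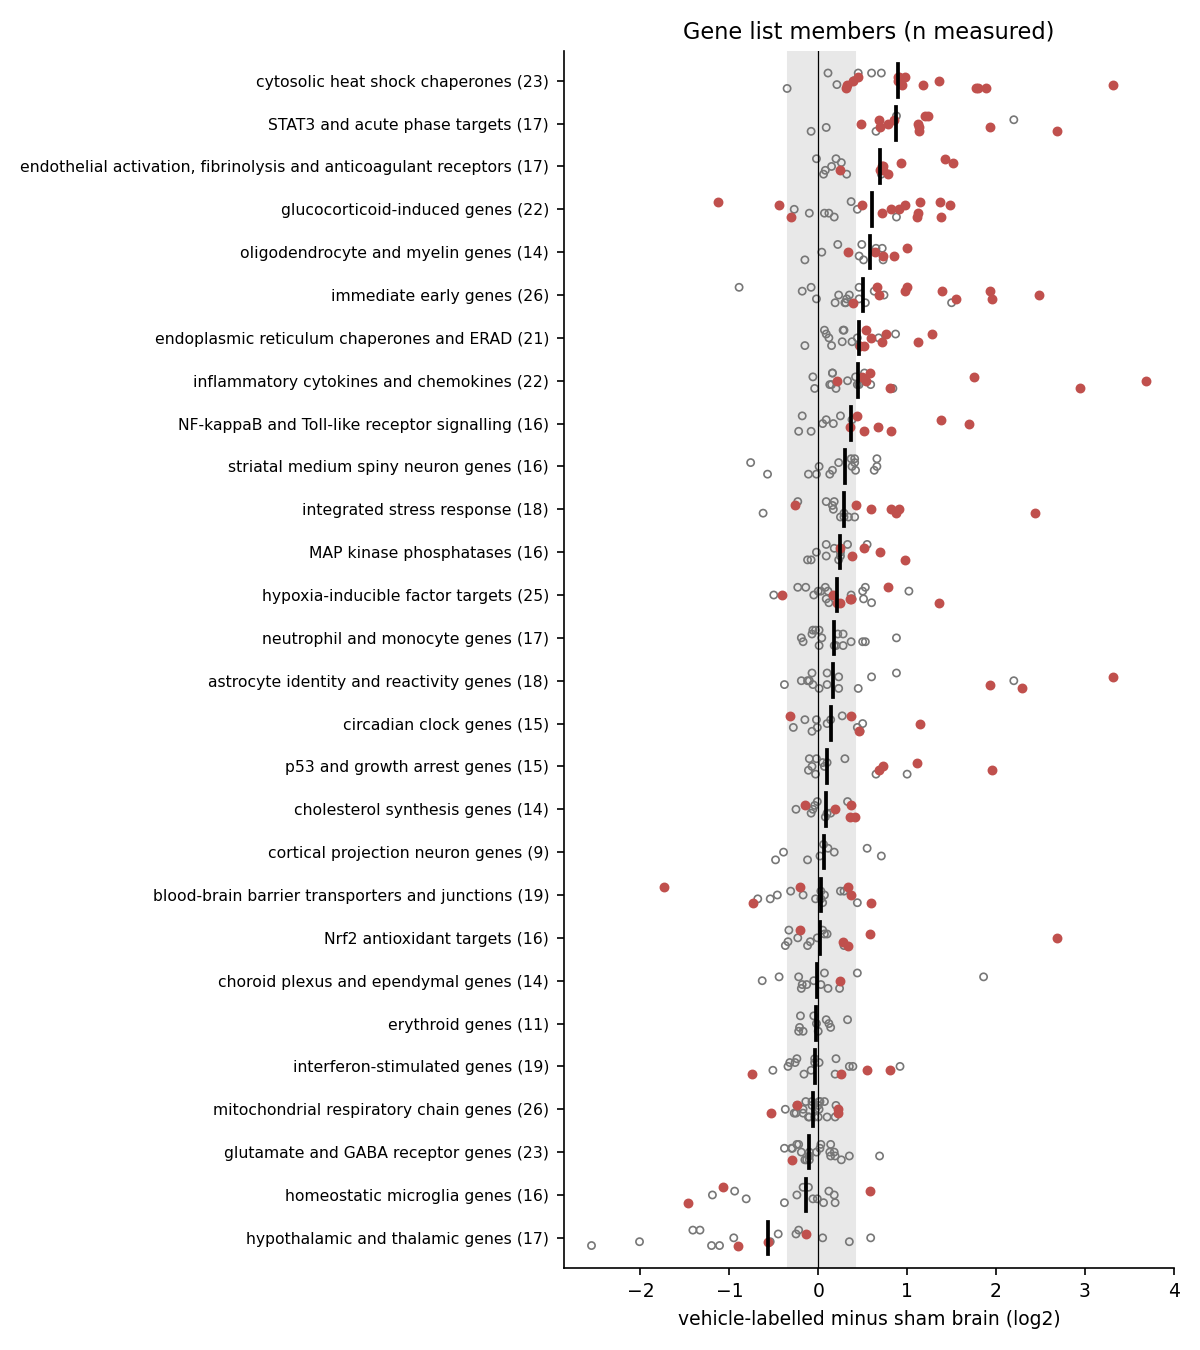
Vehicle-labelled minus sham difference (log2, horizontal axis) of each measured member of the 28 gene lists, ordered by list median (black bars); filled red points are genes whose 3 vehicle-labelled and 3 sham arrays do not overlap, open points overlap, and the grey band holds 90% of all genes (-0.34 to 0.41). The heat shock (median 0.90) and STAT3 (0.88) lists are at the top and the hypothalamic and thalamic list (-0.57) at the bottom.

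Vehicle-labelled brains were also set against model-labelled brains directly; the sham arrays enter neither mean but share the estimate of the spread. Per limma, 8 of 14506 genes passed the test (0.0551%), and 7 of them were lower in vehicle-labelled brains. None of the 7 genes that rose against sham was among them, and their adjusted p lay between 0.135 and 0.819. Dnajb1, Herpud1, P4ha1 and Sgk1 had higher means in vehicle-labelled brains, whereas Errfi1, Nfkbia and Nfil3 had higher means in model-labelled brains. For Errfi1 the mean was 9.10 ± 0.27 in vehicle-labelled brains, 9.89 ± 0.12 in model-labelled brains and 7.73 ± 0.22 in sham brains (SD, n = 3 each).

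Egr2, Lif and Rab39a are described from this comparison, and were picked out after their values were seen. Egr2, an immediate early transcription factor, averaged 4.37 in vehicle-labelled brains, 6.96 in model-labelled brains and 4.06 in sham brains, and fell by 2.59 against model-labelled brains (adjusted p = 0.031). Lif, a cytokine of the IL-6 family, averaged 5.18 in vehicle-labelled brains, 6.90 in model-labelled brains and 5.02 in sham brains (adjusted p = 0.0452 against model-labelled brains). Rab39a, a small GTPase of membrane traffic, was the gene that was higher in vehicle-labelled brains, with 7.29 in vehicle-labelled brains, 6.33 in model-labelled brains and 6.59 in sham brains (adjusted p = 0.031 against model-labelled brains). Egr2 and Lif thus lay near the sham level in vehicle-labelled brains. Npas4 averaged 7.63 ± 0.20 in vehicle-labelled brains, 10.38 ± 0.58 in model-labelled brains and 5.15 ± 0.79 in sham brains (SD, n = 3 each), with an adjusted p of 0.0503 against model-labelled brains. The count of 8 was 0 without vehicle 2, vehicle 5, model 3, sham 3 or sham 4, 1 without model 1, 40 without sham 5, 11 without vehicle 4 and 63 without vehicle 2 and sham 5 together. In the fits that called 0, between 1666 and 2053 genes had an unadjusted p under 0.05.

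The same contrast was drawn in white blood cells and spleen of these groups, and the brain difference was tested against each. It differed from that in white blood cells for 125 genes (0.862%), with 61 more positive in brain (0.421%) and 64 more negative (0.441%). It differed from that in spleen for 21 genes (0.145%), with 19 more positive in brain (0.131%) and 2 more negative (0.0138%). The genes named here were chosen for their brain difference, so how many of them exceed another tissue is a description. P4ha1 was the gene of the 7 that also passed the test in white blood cells (1.46, adjusted p = 0.00727). Its spleen difference was 1.55 and did not pass limma's test there (adjusted p = 0.118). The share of all genes that passed within white blood cells is not given here. Sgk1 differed by 1.48 in brain, against 0.09 in white blood cells and -0.33 in spleen, and both contrasts with brain passed the test (adjusted p = 0.0126 and 0.00379). Dnajb1 differed by 1.89 in brain, against 0.80 in white blood cells and 0.84 in spleen, and neither contrast with brain passed the test (adjusted p = 0.184 and 0.288). Nfkbia passed against spleen (adjusted p = 0.0222), and Errfi1 against white blood cells (adjusted p = 0.00747). Ccl3, at 3.69 in brain, was at 0.13 in white blood cells and -0.68 in spleen. The 125 became 50 without vehicle 4, 59 without vehicle 5, 216 without vehicle 2 and 201 without vehicle 2 and sham 5 together. The 21 became 10 without vehicle 4, 100 without vehicle 2, 70 without sham 5 and 143 without that pair.

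**Figure D5:**
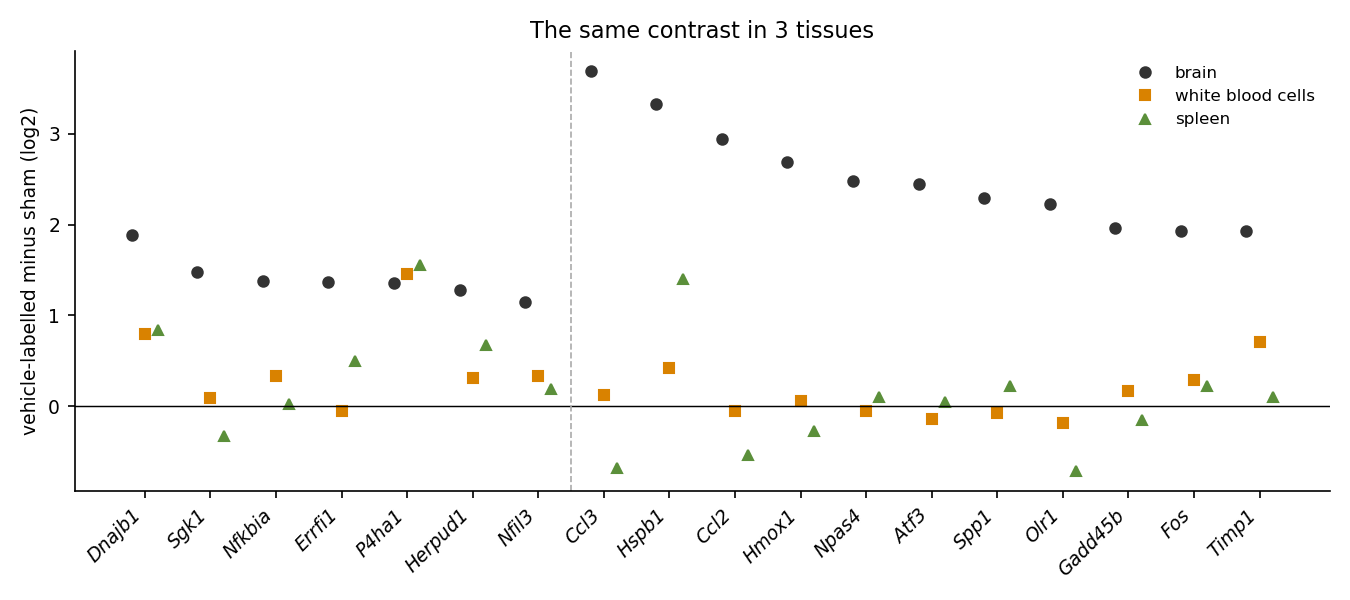
Vehicle-labelled minus sham difference (log2, vertical axis) in brain (black circles), white blood cells (orange squares) and spleen (green triangles), with 3 arrays per group in each tissue; the 7 genes that rose in brain are left of the dashed line and the other large positive differences right of it. P4ha1 lies near the same value in all tissues (1.36, 1.46 and 1.55), whereas Ccl3 is at 3.69 in brain and at 0.13 and -0.68 in the others.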

How the data were processed

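Total RNA of the brain, white blood cells and spleen of each rat was hybridized to Affymetrix rat arrays. Per the submitters' processing notes the authors used RMA, whose version is not given in the sources used here. The deposited values span 1.53 to 13.49 and were taken as log2 intensities because of that range; the labels do not state the scale, a detection call or whether tissues were normalized together. Of 27596 probes, 15310 carry 1 gene symbol, 323 carry several and 11963 have no listed gene here; the last 2 kinds were left out. Entrez identifiers of 15279 probes matched a RefSeq table, which changed 0 symbols. A gene with several probes (527 genes) is represented by its brightest probe on average over the 27 arrays, which gives 14506 genes.

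The 9 brain arrays (vehicle-labelled, model-labelled and sham) entered a linear model with 1 mean for each group (limma 3.58.1, R 4.3.3, 2-sided moderated tests, 6 residual degrees of freedom). P-values were adjusted by Benjamini-Hochberg over all genes and called under 0.05. Differences between tissues came from a fit of all 27 arrays (18 residual degrees of freedom), which treats arrays of the same rat as independent. The fit was tested on simulated data. Figures used Python 3.11.15 and matplotlib 3.10.9.

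Groups follow the titles. No label states that replicate numbers pair the groups, and they were not treated as pairs. Residuals of same-numbered arrays of different groups correlated at 0.377, -0.474, 0.00276 and -0.105. So few arrays per group cannot show whether the numbers pair them. Named genes are those called, the 12 largest differences each way with an unadjusted p under 0.05 and no overlap, up to 4 members of each list with the smallest p, the 5 genes next after the threshold, and the 8 largest each way without sham 5 and vehicle 2; predicted genes are counted only, and genes outside the rule are marked. The comparison, the 28 lists (481 of 537 symbols measured, 7 through a synonym) and the alternatives were chosen with earlier results of these data known. The alternatives changed the arrays in the fit, normalization, filter, probe choice, variance model, array weights, replicate block, threshold and arrays left out. Promoter motifs and sequences were not analysed here.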

Additional observations from a re-analysis of the deposited data

Results flagged for a closer look

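For 30 genes, the 7 that rose in brain and the other large differences, the brain contrast was tested against the same contrast in white blood cells and spleen, with 15 differing from white blood cells, 10 from spleen and 9 from both, beside 0.862% and 0.145% of all genes. The 30 were chosen for their brain difference, which is part of the value tested, so these counts are a description and support nothing. Values are the brain difference minus that of the other tissue, in log2 units.

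Among the genes that rose, Errfi1 exceeded white blood cells by 1.42, Nfkbia exceeded spleen by 1.35, and Sgk1 exceeded white blood cells by 1.38 and spleen by 1.81. The chemokine gene Ccl3 exceeded them by 3.55 and 4.37. Hspb1 exceeded white blood cells by 2.90, while its spleen difference was itself 1.40. For Hmox1 the excess was 2.64 over white blood cells and 2.96 over spleen, and for the activity-induced factor Npas4 it was 2.53 and 2.38. Atf3 exceeded white blood cells by 2.59 and spleen by 2.40, Olr1 by 2.40 and 2.93, and Gadd45b by 1.79 and 2.11. Spp1 exceeded white blood cells by 2.36.

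Among the negative differences, Slco1a4 was lower in brain by a contrast of -1.60 against white blood cells and -1.88 against spleen, and Sncg by -1.58 and -1.83. Olfml3, Nrarp and Ucp2 differed from white blood cells by -1.20, -1.38 and -1.21.

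A further signal came from a probe outside the gene table. Probe 10828154 lists 3 genes of the Hsp70 family, so no single gene can be named for it. It measured 9.32, 11.51 and 11.53 in vehicle-labelled brains 2, 4 and 5, 10.57, 10.99 and 10.64 in model-labelled brains 1, 2 and 3, and 6.74, 6.84 and 6.68 in sham brains 3, 4 and 5. In a fit of all 27596 probes it rose by 4.03 ± 0.48, a fold of 16.4 (limma, adjusted p = 0.0371). It was the probe without a single gene among the 8 probes called in that fit, and vehicle 2 was again the lowest vehicle-labelled array.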

How the results depend on the processing

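Not all of the 22 alternatives could lose a called gene. A threshold of 0.10 only loosens the cut, and all 7 genes exceeded the fold limit of 2. Averaging the probes of a gene left the values of the 7 unchanged, as each has 1 probe. The 7 genes that rose against sham were all called in 13 of 22 alternatives, while 8 alternatives called 0 and 1 called some of them. Their count was 208 when all 27 arrays were fitted together, 21 with a filter at the 40th percentile, 20 with a variance trend and robust prior, 369 with array weights, 53 at an adjusted p under 0.10, 224 without sham 5 and vehicle 2, between 0 and 106 with any single brain array left out, and 0 with the 6 vehicle-labelled and sham arrays alone (1193 genes at an unadjusted p under 0.05). With replicate number as a block, a pairing that no label states, the count was 0 by limma (970 genes at an unadjusted p under 0.05). The vehicle-labelled against model-labelled count was then also 0 (666). That second count, 8 here, was 346 with all 27 arrays, 18 after quantile normalization, 38 over all probes, 123 with array weights, 55 at 0.10, 63 without the pair of arrays, and 0 to 40 with single arrays left out. The 125 genes differing from white blood cells became 421 with array weights, 201 without the pair and 50 to 216 with single arrays left out. The 21 differing from spleen became 32 after quantile normalization, 318 with array weights, 52 at 0.10, 143 without the pair and 10 to 100 with single arrays left out. The causes of these shifts were not tested. Of 90 named genes under these alternatives, 1675 values kept their side of the threshold, 235 passed it newly, 60 no longer passed and 0 reversed sign. Genes named only as list members were followed only where limma's unadjusted p with all arrays was under 0.05. That choice favours a stable sign, so the 0 is no support. Alas2, a named gene not followed, went from -0.21 to 0.03 without sham 5 and vehicle 2. Quantile normalization and median centring shifted the median of all genes by -0.03. Signal over background was not analysed here, so low values have no stated floor.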

Other observations

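Ttr, the transthyretin gene of choroid plexus, was high in vehicle 5 and in model 3. It measured 5.64, 4.37 and 9.59 in vehicle-labelled brains 2, 4 and 5, 5.86, 5.30 and 11.93 in model-labelled brains 1, 2 and 3, and 4.68, 4.55 and 4.79 in sham brains 3, 4 and 5. The other markers set vehicle 5 apart little or not at all. Kl was at 4.02 in vehicle 5, against 4.01 in sham 5, and Folr1 at 4.43, against 4.33, both by a small margin the highest of the vehicle-labelled and sham arrays. Kcnj13 was at 4.50, against 3.17 to 4.88 in the sham brains. Of the wider list, Sostdc1 (4.05) and Slc4a5 (3.84) were also highest in vehicle 5. Aqp1, Enpp2, Clic6, Drc12, Foxj1, Prlr, Dynlrb2 and Igf2 were not. The 4 markers summed to between 15.70 and 22.54 in vehicle-labelled brains, against 16.30 and 17.45 in sham brains. The list of 14 choroid plexus and ependymal genes had a median difference of -0.01, and its mean level was 0.42 in vehicle 5 and 1.38 in model 3.

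The lists described next had median differences between -0.10 and 0.30, though single members differed by more. Of 26 genes of the mitochondrial respiratory chain 2 were higher and 2 lower without overlap (7.69% each), with a median of -0.06; Ndufa1, a subunit of complex I, measured 7.67, 7.71 and 7.67 in vehicle-labelled brains 2, 4 and 5, against 8.09, 8.10 and 8.46 in sham brains 3, 4 and 5 (adjusted p = 0.181). Of 23 glutamate and GABA receptor genes 0 were higher and 1 lower without overlap, with a median of -0.10. Cholesterol synthesis genes had 4 of 14 higher (28.6%) and 1 lower (7.14%) without overlap, with a median of 0.09. Of 15 circadian clock genes 3 were higher (20%), among them Nfil3, and 1 was lower (6.67%), namely Tef. Interferon-stimulated genes had 3 of 19 higher and 1 lower without overlap, with a median of -0.04, and Ifit3, an antiviral protein, measured 4.19, 4.24 and 4.40 in vehicle-labelled brains 2, 4 and 5, against 3.56, 3.73 and 3.90 in sham brains 3, 4 and 5 (adjusted p = 0.162). Astrocyte identity and reactivity genes had a median of 0.17 and 3 of 18 higher (16.7%), namely Hspb1, Timp1 and Spp1, with 0 lower. The test was passed by 5 members without vehicle 2 and sham 5, these 3 with Lcn2 and Cd44. On average the list lay at 0.39, 0.77 and 0.74 in vehicle-labelled brains 2, 4 and 5, against 0.01, -0.09 and 0.09 in sham brains 3, 4 and 5, relative to the sham mean. The astrocyte markers Gfap, Aqp4, Slc1a2 and Gja1 summed to between 39.87 and 39.95 in vehicle-labelled brains, against 39.22 and 39.69 in sham brains. Striatal medium spiny neuron genes had 0 of 16 without overlap and a median of 0.30.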
